A study of Mus musculus with 2 samples.

Results

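The genes described here carry water and electrolytes across the wall of the colon. They were chosen by name for that role, because prostaglandin E2 drives chloride secretion in the colon, and comprise 10 of the 14669 genes with a value: the sodium-proton exchanger Slc9a3, the chloride-bicarbonate exchanger Slc26a3, the sodium-potassium-chloride cotransporter Slc12a2, the proton-potassium pump Atp12a, the water channels Aqp4 and Aqp8, the chloride channel Cftr and the epithelial sodium channel subunits Scnn1a, Scnn1b and Scnn1g. RNA of colon from C57BL/6 mice, which by the methods were 8 weeks old, was measured on 1-colour Agilent mouse arrays, 1 array per genotype. Control mice carried the Villin-Cre transgene alone, and EP4 cKO mice carried Villin-Cre; EP4flox/flox, so both genotypes express Cre recombinase from the Villin promoter, which is active in the epithelium of the gut, and the EP4 gene Ptger4 is floxed in the EP4 cKO mice only. By the labels, the RNA of an array came from 3 pools of colon tissue put together. With 1 array per genotype there was no replicate check, no test was made and no p-value is given, so every value below describes these arrays and not the spread between mice.

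The surface cells of the colon absorb sodium by exchange for protons and, in the distal colon, through the epithelial sodium channel, a heteromer of 3 subunits whose abundance is raised by aldosterone. Chloride is taken up in exchange for bicarbonate by Slc26a3, loaded into secreting cells through Slc12a2 on their basolateral side and released into the lumen through Cftr, a channel that opens on cyclic AMP. Prostaglandin E2 raises cyclic AMP through EP4, a receptor coupled to the stimulatory G protein, and water follows the ions, in part through aquaporins.

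Sequence upstream of the start of 6 of the 10 genes was read from the RefSeq promoter table of the mouse assembly GRCm38.p6 (250 bases before the annotated start of each gene, written 5′ to 3′ on the strand of the gene). 4 of these windows are shown because their genes carry the results below: Slc9a3 and Scnn1g, which differed most between the arrays, Aqp8, which lay at the 2-fold limit, and Cftr, the member with the lowest ratio. They lie at chr13:74121163-74121412, chr7:121734229-121734478, chr7:123462044-123462293 and chr6:18170437-18170686, all on the plus strand. Capitals mark the letters TTTAT, a CDX-type motif, on either strand.
Slc9a3: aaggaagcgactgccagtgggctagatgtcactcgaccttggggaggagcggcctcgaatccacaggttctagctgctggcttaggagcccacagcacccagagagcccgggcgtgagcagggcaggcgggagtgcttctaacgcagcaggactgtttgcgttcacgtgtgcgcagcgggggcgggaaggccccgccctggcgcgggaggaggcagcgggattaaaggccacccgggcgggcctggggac
Scnn1g: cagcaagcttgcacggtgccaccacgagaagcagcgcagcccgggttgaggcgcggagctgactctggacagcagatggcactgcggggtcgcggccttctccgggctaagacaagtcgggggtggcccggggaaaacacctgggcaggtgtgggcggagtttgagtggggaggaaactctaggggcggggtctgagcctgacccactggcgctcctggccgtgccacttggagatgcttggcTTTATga
Aqp8: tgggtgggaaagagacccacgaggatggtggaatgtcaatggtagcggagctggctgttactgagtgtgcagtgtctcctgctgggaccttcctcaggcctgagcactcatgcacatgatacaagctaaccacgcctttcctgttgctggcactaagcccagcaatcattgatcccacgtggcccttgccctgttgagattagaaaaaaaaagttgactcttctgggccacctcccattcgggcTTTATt
Cftr: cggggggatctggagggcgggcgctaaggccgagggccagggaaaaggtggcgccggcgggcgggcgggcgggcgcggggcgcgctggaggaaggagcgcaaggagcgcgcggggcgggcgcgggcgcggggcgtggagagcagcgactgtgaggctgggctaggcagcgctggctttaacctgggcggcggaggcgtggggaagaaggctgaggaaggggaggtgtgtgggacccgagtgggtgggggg

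The letters TTTAT or their reverse complement stood in 3 of the 6 windows, beginning 6 bases before the start in Aqp8, 7 bases before it in Scnn1g and, on the minus strand, 29 bases before it in Slc26a3, while 37.3% of the 32851 windows in the table hold them. No window of the 6 held the cyclic AMP response element TGACGTCA (1.55% of all windows), its core TGACG (17.8%) or the hormone receptor motif TGTTCT (16.1%), on either strand. GC content ran from 38.8% in Slc26a3 to 76.4% in Cftr, beside a median of 52.4% over all windows. These counts describe letters only, and nothing was drawn from them about the binding of any factor.

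The floxed gene was looked at before the transporters, as a check of the labels. The brighter Ptger4 probe read 6227 on the array with the Villin-Cre label and 5661 on that with the EP4 cKO label, giving a log2 ratio of -0.14 ± 0.20. Its dimmer probe read 393 and 592, a log2 ratio of 0.59 ± 0.23. Ptger4 was therefore not lower beyond the error on the array labelled EP4 cKO. The place of the probes relative to the floxed part is not given in the sources used here, and colon also holds cells that Villin-Cre does not reach. The paper reports deletion of EP4 in EP4 cKO mice by qRT-PCR. That was measured in isolated crypts and was not analysed here. All directions below rest on the labels of the arrays, and a value is given as read under the Villin-Cre label or under the EP4 cKO label. Signals are the processed intensities of the scanner software, scaled so that the trimmed mean of each array is 2500, and the error after each log2 ratio is that of the scanner's error model for the spots on each array, about 10% a spot, which covers neither mice nor pools. Of the 56593 gene probes, 45.4% were well above background under the Villin-Cre label and 51.6% under the EP4 cKO label, and the lowest signals called so were 125 and 57.8.

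Of the 10 transport genes, 5 exceeded 2-fold with the higher signal under the EP4 cKO label (Slc9a3, Scnn1g, Atp12a, Aqp4 and Aqp8), and 0 of 10 were lower by that much. Over all 14669 genes with a value, 4.86% were higher and 7.87% lower by more than 2-fold. The share lower depended on signal. With genes ranked by signal into 10 bins of equal size, it was 22.7% in bin 1, the dimmest. In bins 7 to 10, where most of the 10 genes lie, 1.09% to 2.11% were lower and 3.68% to 4.29% higher. A count of 0 lower is thus near what genes of like signal show. The median log2 ratio of the 10 genes was 0.76, beside -0.10 over all genes. Over genes with a signal well above background on both arrays, it was 1.0 for the 9 members and -0.15 for all 12816 such genes. In RNA of whole colon, a higher signal can come from more cells of a type or from more RNA per cell, and these cannot be told apart here. The genes were named with earlier results of these arrays known, so the counts are a description.

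**Figure D1:**
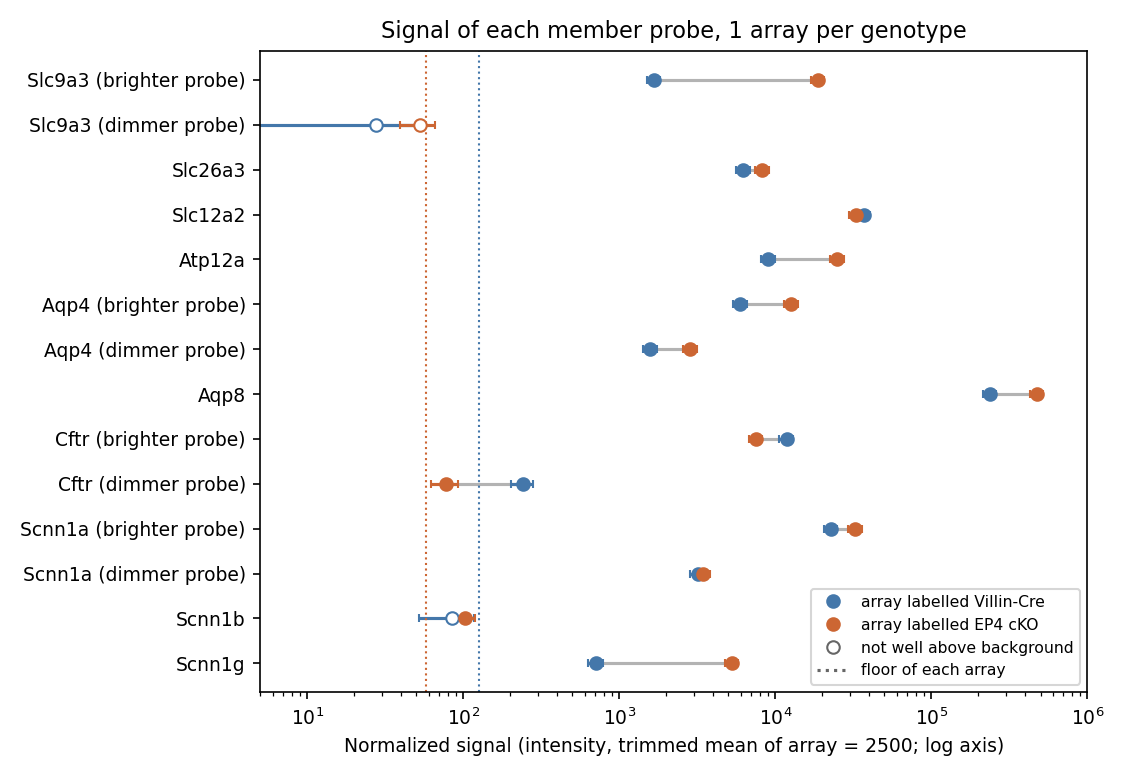
Normalized signal (horizontal log axis) of each of the 14 probes of the 10 genes under the Villin-Cre label (blue) and the EP4 cKO label (orange), with bars for the error of the scanner's model, open circles for signals not well above background and dotted lines at the lowest signal called well above background on each array. Slc9a3 and Scnn1g show the widest gaps, with the signal labelled EP4 cKO 11.3-fold and 7.38-fold higher, and both Cftr probes lie the other way.

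Of the genes of sodium absorption, Slc9a3, which encodes the exchanger NHE3 of the apical membrane, had the largest ratio of the 10. Its probe read 1661 under the Villin-Cre label and 18703 under the EP4 cKO label, 11.3-fold higher, with a log2 ratio of 3.49 ± 0.21. Only 73 of the 14669 genes had a larger ratio. This probe is assigned to a predicted transcript (XM_006517022), and the probe of the curated Slc9a3 transcript (NM_001081060) read 27.6 and 52.6, not well above background on either array, so the result rests on 1 probe of 1 transcript model. A long non-coding gene, Gm41003, overlaps Slc9a3 in the reference.

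The 3 subunits of the epithelial sodium channel had unlike ratios. Scnn1g, the gamma subunit, read 710 under the Villin-Cre label and 5242 under the EP4 cKO label, 7.38-fold higher, with a log2 ratio of 2.88 ± 0.21, and 108 genes had a larger ratio. Scnn1a, the alpha subunit, read 22603 and 32446 on its brighter probe, 1.44-fold higher, with a log2 ratio of 0.52 ± 0.20, and 3169 and 3444 on its dimmer probe, with a log2 ratio of 0.12 ± 0.20. Scnn1b, the beta subunit, has 1 probe, which read 84.4 under the Villin-Cre label, not well above background, and 102 under the EP4 cKO label, so no fold can be given. The Scnn1b probe is assigned to 1 transcript variant (NM_001272023), and whether it also reads other variants is not given in the sources used here. A non-coding gene, Gm36848, overlaps Scnn1g in the reference.

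Scnn1g, Scnn1b and Aqp8 lie on the same chromosome, with no protein-coding gene between Scnn1g and Scnn1b and 17 between Scnn1b and Aqp8. Of these 17, 15 had a value, 0 were more than 2-fold higher or lower, and their log2 ratios ran from -0.78 to 0.69 with a median of -0.07. The ratios of Scnn1g and Aqp8 therefore stood outside the range of the genes between Scnn1b and Aqp8.

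Of the genes of anion exchange and potassium absorption, Slc26a3 encodes the apical chloride-bicarbonate exchanger DRA. It read 6210 under the Villin-Cre label and 8262 under the EP4 cKO label, 1.33-fold higher, with a log2 ratio of 0.41 ± 0.20, a change within 2-fold. Atp12a, the catalytic subunit of the colonic proton-potassium pump, which takes up potassium in the distal colon, read 8990 and 24983, 2.78-fold higher, with a log2 ratio of 1.47 ± 0.20. 372 genes had a larger ratio than Atp12a.

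Both water channels were higher under the EP4 cKO label. Aqp8, a channel of surface colonocytes, read 236302 under the Villin-Cre label and 473610 under the EP4 cKO label, a log2 ratio of 1.0 ± 0.20. Its 2.004-fold ratio lies just past the 2-fold limit, well within its error of it. Aqp4, a basolateral water channel, read 5955 and 12613 on its brighter probe, 2.12-fold higher with a log2 ratio of 1.08 ± 0.20, and 1579 and 2846 on its dimmer probe, 1.80-fold higher with a log2 ratio of 0.85 ± 0.21. Both Aqp4 probes pointed the same way, on either side of the 2-fold limit. A non-coding gene, A830021F12Rik, overlaps Aqp4 in the reference.

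The genes of the secretory path were not higher, except under scaling to the E1A control spots. Slc12a2, the basolateral cotransporter NKCC1, read 36714 under the Villin-Cre label and 32876 under the EP4 cKO label, a log2 ratio of -0.16 ± 0.20, which is within its error. Cftr read 11788 and 7469 on its brighter probe, 1.58-fold lower under the EP4 cKO label, with a log2 ratio of -0.66 ± 0.20. Its dimmer probe read 241 and 77.5, 3.1-fold lower, with a log2 ratio of -1.63 ± 0.36. These signals lie near the lowest called well above background, 125 and 57.8. Among genes with mean signals from 123 to 262, where this probe falls, 18.0% were more than 2-fold lower. In the bin of the brighter probe 2.11% were. Both Cftr probes were lower, but by amounts that differed by 0.98 on the log2 scale. Over the 3345 genes measured on both arrays by 2 probes, probes of a gene differed by a median of 0.20, and 5.05% differed by more than those of Cftr, beside 45.2% for Aqp4 and 26.3% for Scnn1a. Under the E1A scaling the log2 ratios of Slc12a2 and Cftr became 0.86 and 0.36, while the median of all genes became 0.85.

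**Figure D2:**
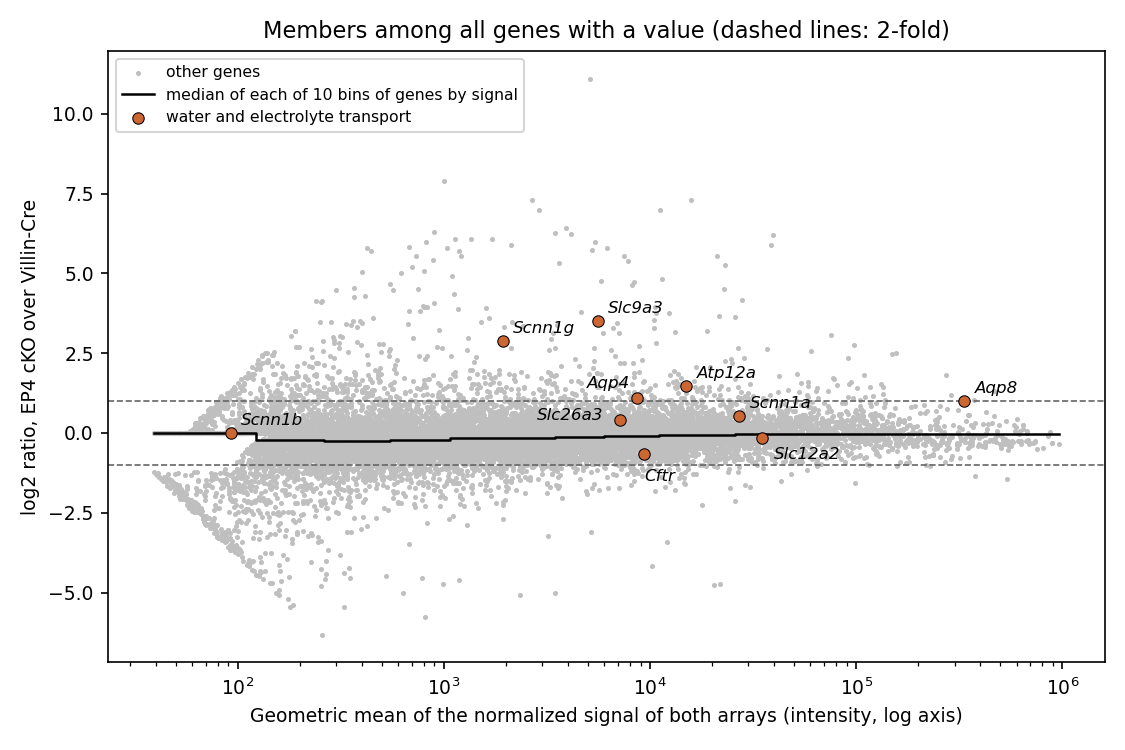
Log2 ratio of EP4 cKO over Villin-Cre (vertical axis) against the geometric mean of the normalized signal of both arrays (horizontal log axis) for all 14669 genes with a value (grey, brightest probe of each gene) and the 10 transport genes (orange), with medians of bins of genes with like signal as a black line and dashed lines at 2-fold. Slc9a3 (3.49) and Scnn1g (2.88) lie far above the medians of their bins, -0.13 and -0.17, and Slc12a2 and Cftr lie at or below the line.

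Read against genes of like signal, the order of the ratios was the same. The log2 ratio minus the median of a bin of genes with like signal (10 bins of equal size) was 3.62 for Slc9a3, 3.06 for Scnn1g, 1.54 for Atp12a, 1.16 for Aqp4, 1.03 for Aqp8, 0.54 for Scnn1a, 0.49 for Slc26a3, -0.14 for Slc12a2 and -0.58 for Cftr. Among neighbours in this order, the gaps from Aqp4 to Aqp8 and from Scnn1a to Slc26a3 are smaller than the error of either ratio, while those from Slc9a3 to Scnn1g and from Scnn1g to Atp12a are larger.

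The ratios were recomputed with the arrays scaled in other ways. Under the 75th percentile, normexp with quantile normalization, loess and a trimmed mean over all spots, Slc9a3 ran from 3.31 to 3.65, Scnn1g from 2.69 to 3.04 and Cftr from -0.66 to -0.50, and the same 5 genes were more than 2-fold higher under each. Under each of these 4 settings the median of all genes was 0.00. That is also the value given to bounds that did not exceed 1, so it does not measure the shift of a setting. Slc9a3 moved from 3.49 to 3.65 at the 75th percentile, 3.63 over all spots, 3.58 under loess and 3.31 under normexp with quantile normalization. The share of genes more than 2-fold higher against lower became 6.39% against 6.18% at the 75th percentile and 6.18% against 5.92% under loess. It became 6.14% against 6.43% over all spots and 4.13% against 2.67% under normexp with quantile normalization. Scaling to the E1A control spots, which detect a control RNA and not a mouse gene, raised the ratio of each of the 9 members measured on both arrays by about 1.02, so that 7 of 10 were more than 2-fold higher, along with 37.7% of all genes.

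**Figure D3:**
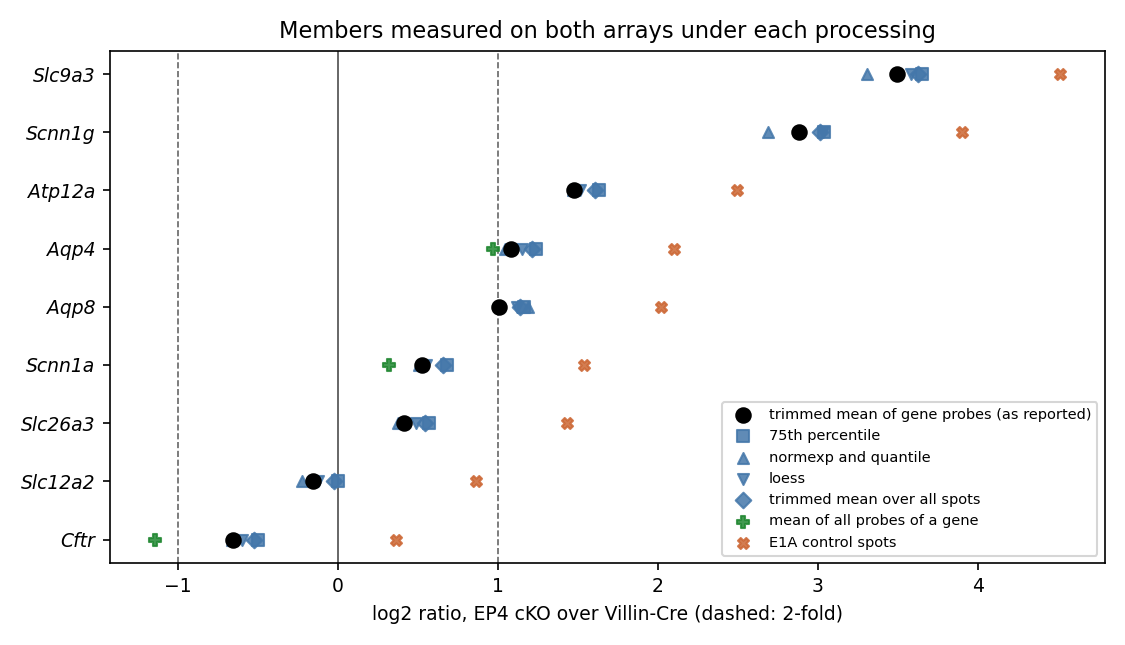
Log2 ratio of EP4 cKO over Villin-Cre (horizontal axis) of the 9 transport genes well above background on both arrays under each processing, with black circles for the values reported, blue symbols for the other scalings, green for the mean over the probes of a gene and orange for the E1A control spots, and dashed lines at 2-fold. Slc9a3, Scnn1g, Atp12a and Aqp8 stay above 2-fold under all of them, and Aqp4 falls to 0.97 with the mean of its probes.

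The wider genes of ion and water transport, 125 genes in 7 lists that exclude the 10, are described by counts and medians beside the median of -0.10 and the shares of 4.86% higher and 7.87% lower over all genes. The list with the most genes past 2-fold was that of chloride channels and their cofactors, with 5 higher and 1 lower of 21 with a value (24 listed) and a median log2 ratio of 0.18. The 5 were Clca4b, Clca4a, Clca1, Clca3b and Clcn2. The Clca genes encode regulators of calcium-activated chloride currents rather than pores, and Clcn2 is a chloride channel of the basolateral membrane of surface cells.

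Clca4b read 477 under the Villin-Cre label and 35806 under the EP4 cKO label, 75.1-fold higher, with a log2 ratio of 6.23 ± 0.22. Clca4a read 6092 and 76563, 12.6-fold higher, with a log2 ratio of 3.65 ± 0.20. Clca1, a protein of goblet cell mucus, had a log2 ratio of 1.31, Clca3b of 1.2 and Clcn2 of 1.06. The Clca genes are close paralogs, and whether their probes bind each other's transcripts was not tested. Slc12a3, the thiazide-sensitive cotransporter of the kidney, read 260 under the Villin-Cre label and was not well above background under the EP4 cKO label, at least 4.50-fold lower, but its log2 ratio was -0.55 under normexp with quantile normalization. Ano1, the calcium-activated chloride channel, and Best2, a bicarbonate-permeable channel of goblet cells, had log2 ratios of 0.18 and -0.19.

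The genes that control the epithelial sodium channel had a median of 0.22, with 4 of 19 higher and 1 lower (22 listed). Sgk2, a kinase related to Sgk1, read 10598 under the Villin-Cre label and 50581 under the EP4 cKO label, 4.77-fold higher, with a log2 ratio of 2.25 ± 0.20. Usp2, a deubiquitinase that keeps the channel at the membrane, read 1645 and 6179, 3.76-fold higher, with a log2 ratio of 1.91 ± 0.21. Per1, a clock gene that also responds to aldosterone, was 2.40-fold higher. Asic1, an acid-sensing channel of the same family, was at least 2.52-fold higher, and Asic3 at least 3.80-fold lower, each measured on 1 array only. Asic3 lay within 2-fold under normexp with quantile normalization (-0.58) and under the E1A scaling (-0.91).

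Other genes of that list stayed within 2-fold. Sgk1, the best known kinase induced by aldosterone, had a log2 ratio of 0.77, and Tsc22d3, which aldosterone also induces, of 0.64. The receptor genes Nr3c2 (mineralocorticoid) and Nr3c1 (glucocorticoid) had log2 ratios of 0.01 and -0.01. Hsd11b2, which protects the mineralocorticoid receptor from glucocorticoids, had -0.53, and the ubiquitin ligase genes Nedd4l and Nedd4, which remove the channel, had -0.14 and -0.73. The protease inhibitor gene Spint2, the gene of the list with the highest mean signal, had 0.42.

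In the list of sodium-proton and anion exchange, 0 of 13 genes were higher and 1 was lower by more than 2-fold (18 listed), with a median of -0.08. The 1 was Slc4a4, the basolateral sodium-bicarbonate cotransporter that supplies bicarbonate for secretion, which read 25272 under the Villin-Cre label and 8480 under the EP4 cKO label, 2.98-fold lower, with a log2 ratio of -1.58 ± 0.20. Other sodium-proton exchangers of the gut lay within 2-fold, with log2 ratios of 0.41 for Slc9a2 and -0.30 for Slc9a8. Slc9a3r1, the scaffold NHERF1 that binds both NHE3 and Cftr, had 0.95. The count of 0 became 1 of 13 under the 75th percentile and all-spot scalings, by Slc9a3r1, and under loess, by the sulfate transporter gene Slc26a1. Under the E1A scaling 6 of 13 were higher and 0 lower. Chp1, a cofactor of the exchangers, had 0.55.

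The remaining lists held few genes past 2-fold. Of the potassium channels, 0 of 9 were past 2-fold in either direction (12 listed, median 0.00). That median is the value of Kcnj13, a bound set to 0, and it was -0.05 over the channels measured on both arrays. Under the E1A scaling 4 of 9 were higher and 0 lower, and without the filter on dim probes 1 of 12 was higher and 3 lower. The channels that recycle potassium during chloride secretion had log2 ratios of -0.24 for Kcnq1, -0.27 for Kcne3 and -0.44 for Kcnn4. Of the sodium and proton pumps and FXYD subunits, 1 of 11 was higher and 0 lower (16 listed, median 0.13). That gene was Atp4b, a beta subunit of the gastric proton pump, at least 3.40-fold higher and not well above background under the Villin-Cre label. The sodium pump drives all of this transport, and its beta subunit gene Atp1b1 had a log2 ratio of 0.19, while Fxyd4, a regulator of that pump in the distal colon, had -0.73.

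Of the aquaporins other than Aqp4 and Aqp8, 0 of 6 were past 2-fold (10 listed, median -0.28). Aqp2 lay just inside the limit at -0.997, and Aqp1, a channel of endothelium and the aquaporin of this list with the highest mean signal, had -0.52. Of the genes of guanylin and cyclic nucleotide signalling, 0 of 18 were higher and 2 lower (23 listed, median -0.04). Sstr1, a receptor for somatostatin, was 3.65-fold lower and Pde5a, which breaks down cyclic GMP, 3.00-fold lower. Guca2a, which encodes guanylin, read 231994 under the Villin-Cre label and 137675 under the EP4 cKO label, 1.69-fold lower, while its receptor gene Gucy2c had a log2 ratio of -0.34. Under the E1A scaling the medians of all 7 lists lay between 0.74 and 1.24, beside 0.85 over all genes. The counts more than 2-fold higher then were 6 of 18 for guanylin and cyclic nucleotide signalling, with 0 lower, and 2 of 6 for aquaporins. They were 12 of 21 for chloride channels, with 1 lower, 13 of 19 for control of the sodium channel and 6 of 11 for the pumps.

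**Figure D4:**
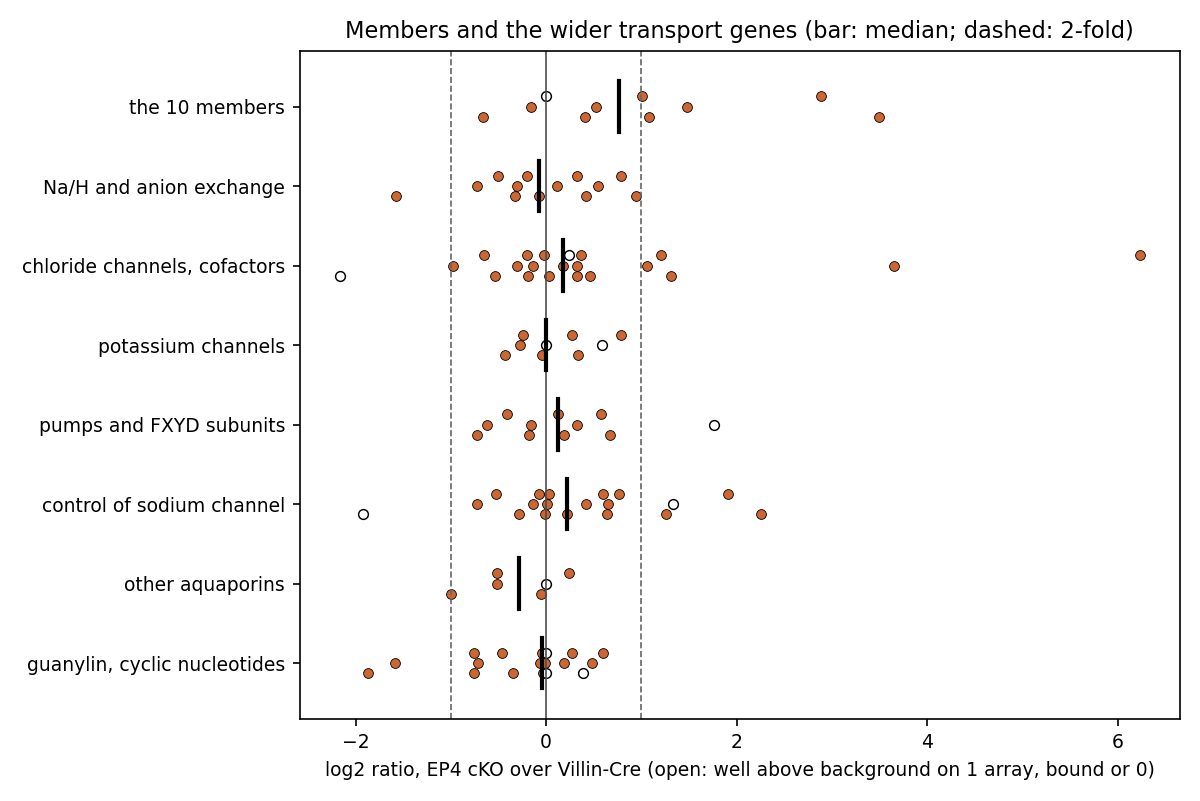
Log2 ratio of EP4 cKO over Villin-Cre (horizontal axis) of each gene with a value in the 10 transport genes and in 7 wider lists (rows), with filled points for genes well above background on both arrays, open points for bounds or values set to 0, bars for the median of each list and dashed lines at 2-fold. The median of the 10 is 0.76, and those of the wider lists run from -0.28 to 0.22, with Clca4b at 6.23 as the gene farthest to the right.

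Markers of cell types were read beside these values, since the tissue is a mixture. All 12 markers of colonic epithelium were measured on both arrays, with a median log2 ratio of 0.08 and a summed signal of 2835055 under the Villin-Cre label and 3339579 under the EP4 cKO label. The epithelial identity of the tissue was thus plain on both, and 11 of the 12 lay within 2-fold. The exception was Krt20, a keratin of surface cells, which read 146575 and 510711, 3.48-fold higher, and the other 11 summed to 2688480 and 2828868. Of 12 markers of surface colonocytes, where most of the absorptive transporters are made, 10 had a value, 3 were higher (Slc51b, Plac8 and Mall), 1 was lower, the median was 0.53, and the summed signal was 605696 and 927228. Of 8 goblet cell markers 2 were higher and 0 lower (median 0.22, summed signal 1515010 and 2218185). The higher ones were Retnlb, which read 95.9, not well above background, and 275441, and Clca1, which is also in the list of chloride channels and read 295526 and 733436. The summed signal of the other 6 was 1219388 and 1209308, with log2 ratios from -0.75 for Tff3 to 0.64 for Fcgbp.

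Fibroblast markers differed most. Of 9 fibroblast markers, 7 had a value and all 7 were more than 2-fold lower under the EP4 cKO label, with a median of -4.32, log2 ratios from -5.77 to -1.09 and a summed signal of 13562 against 565. For 3 of the 7 (Col1a1, Col3a1 and Lum) the value is a bound, since they were not well above background under the EP4 cKO label, and the median was -3.19 over the 4 measured on both arrays and -2.46 under normexp with quantile normalization. Of 9 smooth muscle markers, 6 had a value and 1 was lower (median 0.19, summed signal 32908 and 47366), while the defining marker Myh11 was below background on both arrays. Of 13 markers of enteric neurons and glia, 5 had a value and 2 were lower (median -0.82, summed signal 3675 and 1854), with S100b, Gfap and Sox10 among those below background on both arrays. Of 12 leukocyte markers, 8 had a value and 1 was higher (median 0.09, summed signal 64838 and 83442, of which Itgam alone was 49347 and 68597), with Lyz2 and Adgre1 below background on both. Of 7 markers of mesothelium and fat, 1 had a value, and of 9 anterior Hox genes 6 had a value (median -0.32) and none was past 2-fold. The part of the share of surface cells or of stroma in the transport ratios was not tested.

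Because Slc9a3 is also made in the ileum, markers of small intestine and of position along the gut were read as well. Of 9 markers of small intestine enterocytes 4 had a value, and the bile acid genes Slc10a2 and Fabp6 were 4.83-fold and 3.32-fold higher under the EP4 cKO label (summed signal of the list 8854 against 28394), while Lct, Sis, Apoa1, Apoa4 and Fabp1 were below background on both arrays. Of 8 posterior Hox genes with a reference name 7 had a value and 0 were past 2-fold (median 0.21), and Hoxb13, which marks the distal colon, read 274488 and 248933. By the methods the tissue was whole colon, and the part of position along the gut in the transport ratios was not tested.

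**Figure D5:**
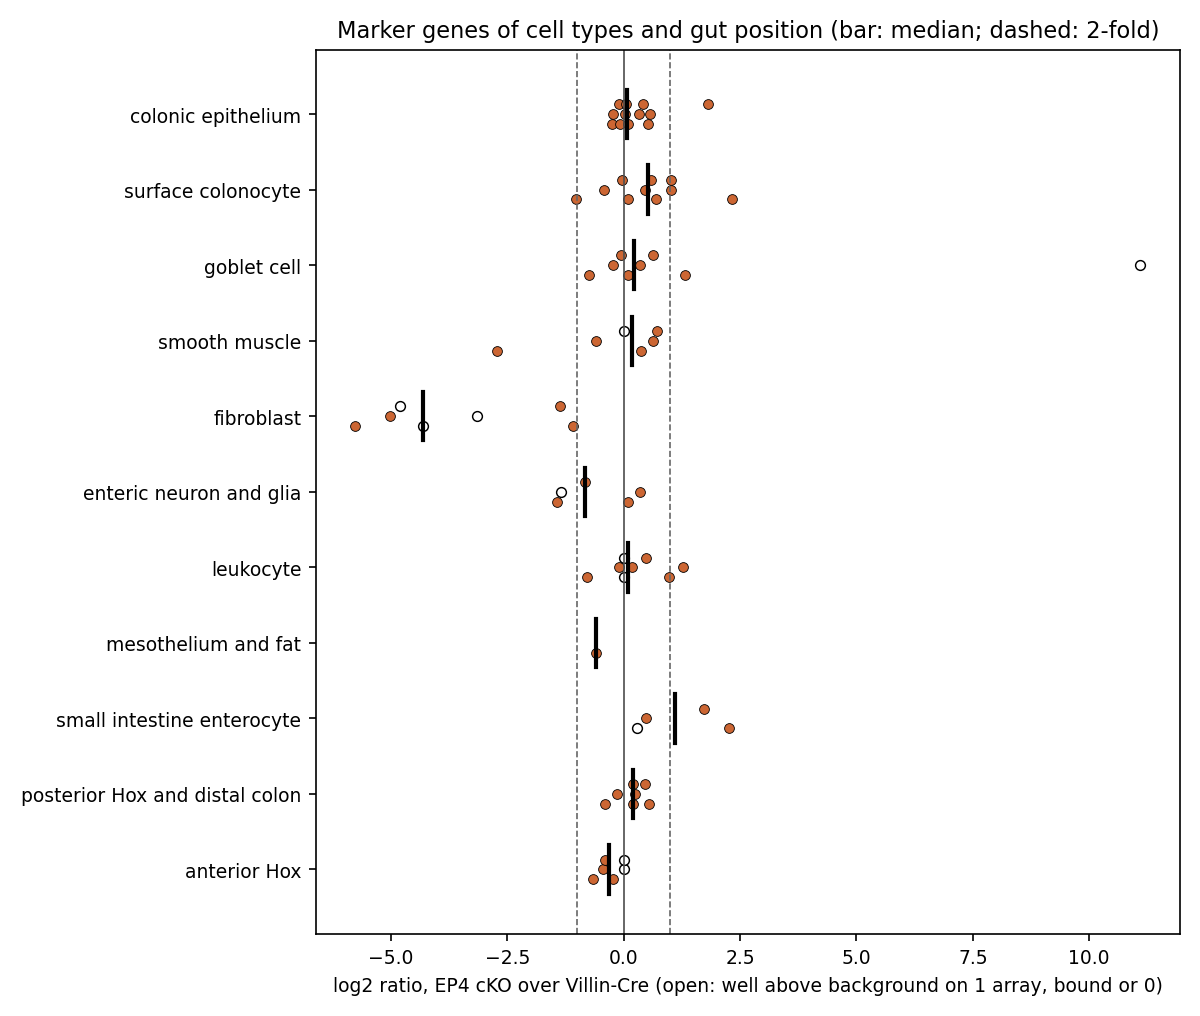
Log2 ratio of EP4 cKO over Villin-Cre (horizontal axis) of each marker gene with a value, by cell type or gut position (rows), with filled points for genes well above background on both arrays, open points for bounds or values set to 0, bars for medians and dashed lines at 2-fold. All 7 fibroblast markers lie below 2-fold, the epithelial markers other than Krt20 and all posterior Hox genes lie within it, and the open point at 11.10 is the goblet cell marker Retnlb.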

How the data were processed

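Colon RNA of the control (Villin-Cre) and EP4 cKO genotypes was hybridized to 1 Cy3 array per genotype (SurePrint G3 Mouse), and groups were taken from the genotype labels. The authors deposited scanner output in which each intensity had been background-subtracted and detrended by the scanner software, with no normalization between arrays. The file headers name Feature Extraction 12.0.3.1 and the submitters' processing notes Agilent Feature Extraction 11.5.1.1.

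From these intensities, control probes and outlier spots were left out, spots of a probe were averaged, and each array was scaled to a trimmed mean of 2500 (2% cut at each end), following the methods. The trimmed means before scaling were 724 and 931. Probes were named through RefSeq accessions in a gene table of GRCm38.p6 (32989 of 56593 matched, 58.3%), and the probe of a gene with the highest geometric mean signal represents it. That probe had to be well above background on at least 1 array. Where it was so on 1 array only, the other array was set to its own signal or, if larger, the lowest signal called well above background there, which gives "at least N-fold", and a bound that did not exceed 1 was set to a log2 ratio of 0. Precision is limited by the number of arrays. No spot was saturated.

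The 10 genes and all lists were chosen with earlier results of these data known. Of the wider lists, the genes past 2-fold and the gene with the highest mean signal are named by rule, and other genes were named after their values were seen. A few genes that the rule or the lists hold are not named here. The sequence search covered the 250 bases before each start and not the 50 after it. Protein sequences were not used here. The alternatives were scaling to the 75th percentile, to all spots or to E1A control spots, normexp (offset 50, on the median signal in place of the mean signal) with quantile normalization, loess (span 0.3), a filter for signal well above background on each of the arrays, no filter at all, the mean of all probes, and thresholds of 3-fold and 1.5-fold. The steps were tested on simulated data. Python 3.11.15, numpy 2.4.6, pandas 2.3.3, statsmodels 0.14.6, matplotlib 3.10.9, R 4.3.3 and limma 3.58.1 were used.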

Additional observations from a re-analysis of the deposited data

How the results depend on the processing

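With 1 array per genotype no array could be left out, and no paired analysis was possible because each genotype has 1 sample and no test was made. The count of 5 genes more than 2-fold higher was also 5 under the 75th percentile, normexp with quantile normalization, loess, all spots, both filters on dim probes and the 1.5-fold threshold, 4 with the mean of all probes, 7 with the E1A spots and 2 at 3-fold (Slc9a3 and Scnn1g). The count of 0 more than 2-fold lower became 1 (Cftr) with the mean of all probes and 1 (Cftr) at 1.5-fold. That mean takes in the dimmer Cftr probe, whose signals lie near the lowest called well above background. The median of the 10 genes was 1.78 with the E1A spots and 1.0 over probes well above background on both arrays, which leaves out Scnn1b. The Ptger4 log2 ratio was 0.88 with the E1A spots and 0.23 with the mean of its probes. Of the log2 ratios of single members, each moved by more than its error with the E1A spots, and that of Cftr also with the mean of its probes, to -1.15. The cause of the E1A shift was not tested. Without the filter on dim probes the median of all genes was -0.37 over 22909 genes. Of the 7 fibroblast markers, all lower by more than 2-fold, 6 were so under the 75th percentile, loess and all-spot scalings and 5 under normexp or the E1A spots, and the 4 measured on both arrays were all lower. The surface colonocyte list had 1 marker lower by more than 2-fold and 0 under the 75th percentile, normexp, loess and all-spot scalings. Signal over background limits Scnn1b and the second Slc9a3 probe, for which a change of any size below the lowest signal called could not be seen.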
